A study of Mus musculus with 21 samples.

Results

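Klhdc8a, Rhobtb1 and Tnfaip2 are 3 of the 7 genes that differed between Gata4-deficient (G4D) and wild-type mouse hearts in the absence of pressure overload, and they were selected on the measured levels of the sham arrays for that difference. They are 3 of 13279 genes tested, and 7 of the 45037 probe sets on the array without its controls read them. The question set to them was whether the difference seen in sham-operated hearts was still there once the heart was under load. It was for the brightest probe set of Klhdc8a. After loading this was lower in G4D hearts by 0.99 ± 0.18 on the log2 scale (standard error, limma adjusted p = 0.0034). The second Klhdc8a probe set was lower too but did not pass the test (limma adjusted p = 0.233). With the values as deposited the brightest did not pass either (limma adjusted p = 0.108). Rhobtb1 and Tnfaip2 did not pass the test after loading, and the 95% intervals of their differences were -0.38 to 0.28 and -0.46 to 0.12.

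RNA was measured on 21 expression arrays in 4 groups: G4D mice after TAC (n = 6), wild-type mice after TAC (n = 6), sham-operated G4D mice (n = 5) and sham-operated wild-type mice (n = 4). G4D mice are heterozygous for a targeted deletion in Gata4 and make less of this factor, and the wild-type mice carry no targeted allele. TAC, transverse aortic constriction, ties a ligature round the aortic arch so that the left ventricle pumps against a higher pressure, and sham surgery was the same without touching the aorta. The labels give no strain, age, sex or time after the operation, and nothing in them says that replicates are separate animals, so p-values measure the spread between these samples.

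Gata4 is a transcription factor that grips DNA with zinc fingers at the short motif after which its family is named, and heart muscle expresses it. The 3 genes belong to unrelated protein families. Klhdc8a encodes a protein made of kelch repeats, which fold into a propeller that binds other proteins, and its human counterpart has been studied in brain tumours. Rhobtb1 encodes a protein whose BTB domains bind cullin-3, the scaffold of a ubiquitin ligase. In mouse vascular smooth muscle it brings phosphodiesterase 5 to that ligase. Tnfaip2, also called M-Sec, is induced by tumour necrosis factor in endothelial and myeloid cells, resembles a subunit of the exocyst, which tethers secretory vesicles, and promotes thin membrane tubes between macrophages in mouse cell lines.

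The sequences before the annotated starts are shown because the 3 genes differed with the genotype of a GATA factor in sham hearts. Each is the 250 bases before a RefSeq transcript start on build GRCm38.p6, plus strand, 5′ to 3′, at chr1:132298376-132298625 for Klhdc8a, chr10:69208302-69208551 for the first of 3 starts of Rhobtb1, and chr12:111442411-111442660 for Tnfaip2. Capitals mark the single motif match found.
Klhdc8a: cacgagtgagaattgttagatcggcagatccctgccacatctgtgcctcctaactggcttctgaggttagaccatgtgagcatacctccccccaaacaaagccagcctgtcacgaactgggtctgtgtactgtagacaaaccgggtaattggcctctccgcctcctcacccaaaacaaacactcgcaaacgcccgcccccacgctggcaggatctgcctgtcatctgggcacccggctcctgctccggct
Rhobtb1: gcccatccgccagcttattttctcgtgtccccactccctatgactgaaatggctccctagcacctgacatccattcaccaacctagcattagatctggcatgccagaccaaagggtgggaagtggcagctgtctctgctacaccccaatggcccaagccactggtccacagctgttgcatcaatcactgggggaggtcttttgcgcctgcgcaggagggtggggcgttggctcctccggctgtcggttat
Tnfaip2: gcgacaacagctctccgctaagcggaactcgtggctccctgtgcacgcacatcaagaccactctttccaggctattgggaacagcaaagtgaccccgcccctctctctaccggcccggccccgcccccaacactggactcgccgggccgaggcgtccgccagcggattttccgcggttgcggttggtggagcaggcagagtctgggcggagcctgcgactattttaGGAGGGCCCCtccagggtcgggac
The GATA motif was searched as AGATAA and as AGATAG, and also as TGATAA and as TGATAG, on both strands, and it was in none of the 5 windows of the 3 genes, including those of the other 2 Rhobtb1 starts, while 26.5% of 32851 promoter windows of the same length held it. The capitals in Tnfaip2 are a match to the NF-kB motif on the minus strand, which begins 24 bases before the start, and 7.25% of all windows hold such a match. The MEF2 motif was searched only in its strict form, with C as its first letter and G as its last, which 0.508% of all windows held, and the SRF CArG box was in 1.47%. Neither was in any of the 5, and looser forms were not searched. A match or its absence describes these letters alone.

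Before the results of the 3 genes, the arrays as a whole were examined. Each array correlated at 0.969 or above with the average of the other arrays in its group over the tested genes. The actin control probe sets, 3′ end minus 5′ end, averaged 0.26 in G4D TAC, 0.34 in wild-type TAC, 0.45 in G4D sham and 0.49 in wild-type sham. For Gapdh the averages were -0.20, -0.23, -0.28 and -0.17 in the same order. The part of these measures in the results was not tested. The array medians of the deposited log2 values lay between 4.31 and 5.33, and the values were quantile normalized before any comparison. Gata4 was not called on either of its probe sets in the fit of all probe sets. On the brighter, G4D minus wild type was 0.17 ± 0.11 after TAC (adjusted p = 0.789) and -0.25 ± 0.12 in sham (adjusted p = 0.893). On the dimmer the differences were 0.07 ± 0.27 and -0.07 ± 0.31. Where these probe sets lie relative to the deletion was not known, so they do not check the genotype labels. The source label names cardiac myocytes, and the 8 myocyte markers averaged 12.35 in G4D TAC, 12.40 in wild-type TAC, 12.42 in G4D sham and 12.44 in wild-type sham. Endothelial and fibroblast markers were measured above the filter level of 4.35 as well, all 9 and all 7 of them. Sample 5 of G4D sham stood apart with a mean of 11.39 over 6 atrial markers, against 5.69 to 6.13 on the other G4D sham arrays, and so did sample 6 of G4D TAC at 8.06, against 5.87 to 6.58.

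**Figure D1:**
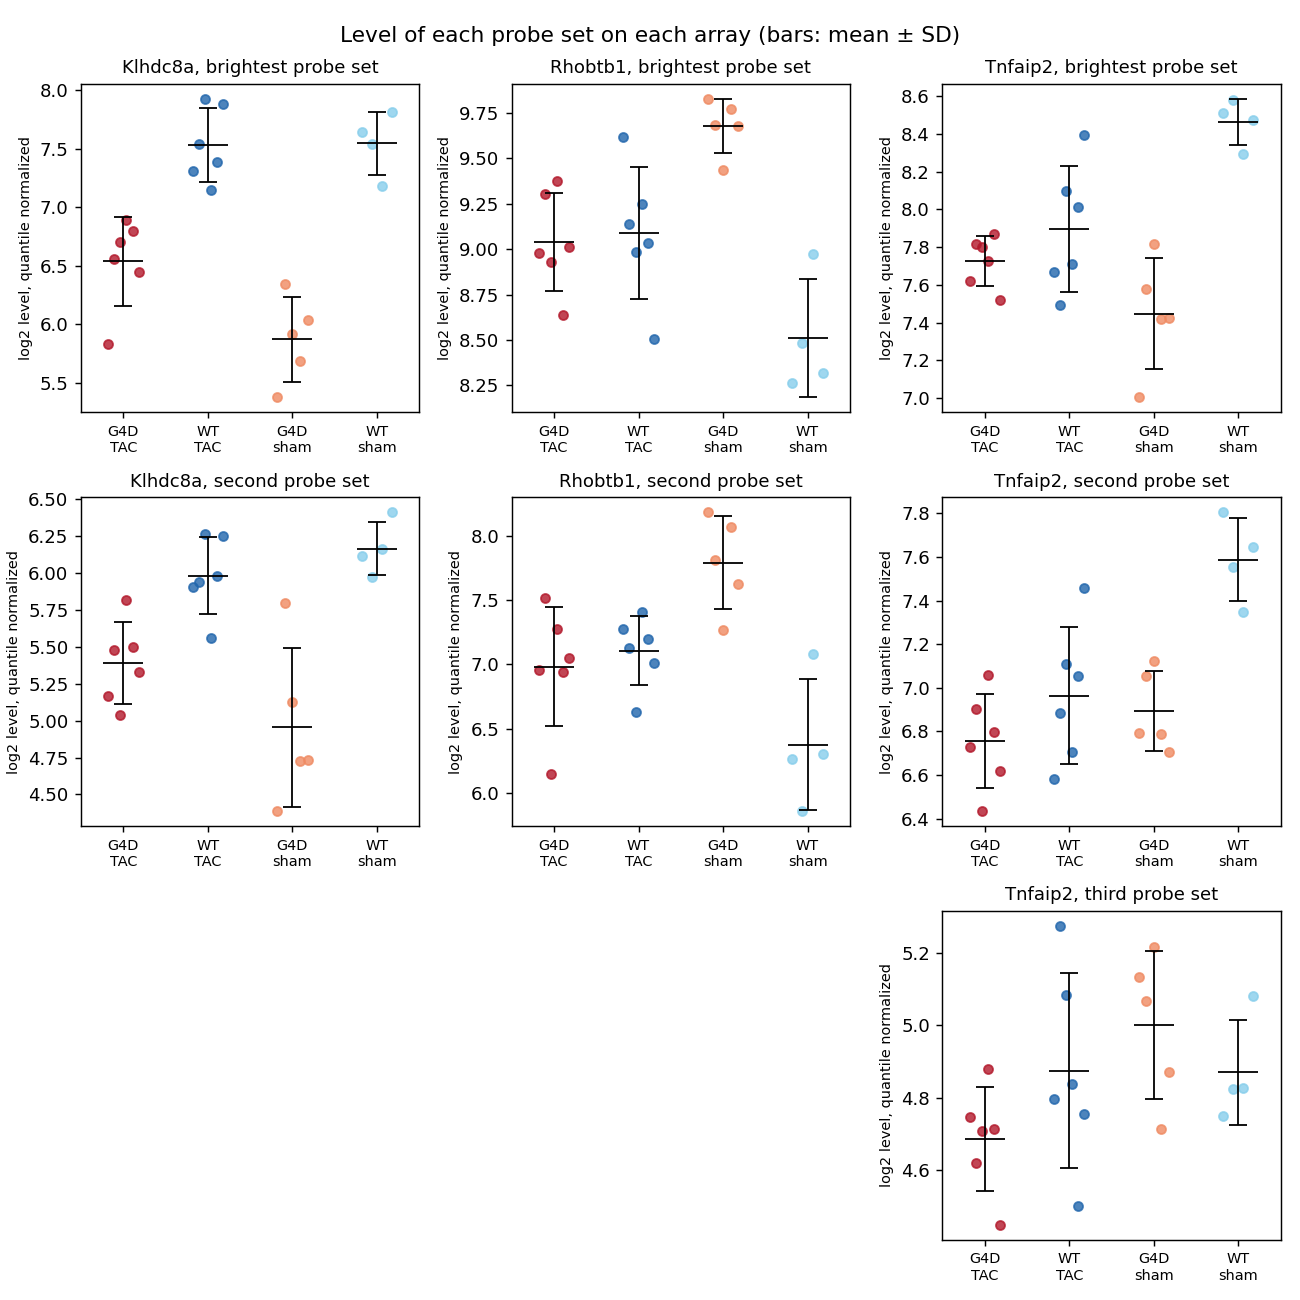
The log2 level of each of the 7 probe sets on every array, by group (points), with the group mean ± SD (bars). On the brightest probe set of Klhdc8a the G4D TAC arrays all lie below the wild-type TAC arrays, while on the brightest probe sets of Rhobtb1 and Tnfaip2 the TAC groups overlap and the sham groups do not.

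Klhdc8a was measured by a pair of probe sets. On the brighter, its log2 level was 5.38, 6.34, 5.92, 5.69 and 6.04 in G4D sham hearts, against 7.65, 7.54, 7.18 and 7.82 in wild-type sham hearts. Every G4D sham array lay at least 0.84 below the lowest wild-type sham array. The group means differed by -1.67 ± 0.21, which is 0.313 of the wild-type level. This difference chose the gene, so it is given as a description. In the sham comparison limma called 0.0527% of the tested genes, and 2.9% had groups that did not overlap. After TAC, which played no part in the choice, the level ran from 5.83 through a median of 6.64 to 6.89 in G4D hearts, against 7.15, 7.47 and 7.93 in wild-type hearts.

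The 6 G4D TAC arrays again lay all below the 6 wild-type TAC arrays, with a gap of 0.26 between the groups. The difference was -0.99 ± 0.18 (95% interval -1.38 to -0.61), or 0.502 of the wild-type level, and it passed the test (limma adjusted p = 0.0034). The exact two-sided permutation test over the 12 TAC arrays gave p = 0.00216, the smallest that 924 permutations allow. After TAC 3.36% of tested genes were called between the genotypes (446 genes, but 64 with the deposited values and 184 with median centring), 1.27% as lower in G4D, and 2.59% had groups that did not overlap. In the deposited values without further normalization the difference was -0.85 and not called (adjusted p = 0.108), or -0.99 relative to the median of all genes, which that scale moved by 0.14.

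The second Klhdc8a probe set was dimmer and also lower in G4D hearts. It is of a type marked as sharing probes with other sequences. Its level after TAC was 5.04 at the lowest, 5.40 at the median and 5.82 at the highest in G4D hearts, against 5.56, 5.96 and 6.26 in wild-type hearts, so these groups overlapped. The difference of -0.59 ± 0.19 was not called in the fit of all probe sets (adjusted p = 0.233), where 0.853% of probe sets were, and it had a p of 0.00433 in the exact permutation test. In sham it was 4.39, 5.80, 5.13, 4.73 and 4.74 in G4D hearts, against 6.11, 5.97, 6.16 and 6.41 in wild-type hearts, a difference of -1.21 ± 0.22 with no overlap, as 1.93% of all probe sets had in sham. Over the 21 arrays the 2 probe sets of Klhdc8a correlated at r = 0.917, and at 0.722 in their deviations from the group means.

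Ranked by group mean, Klhdc8a was highest in wild-type sham (7.55 ± 0.27, SD) and wild-type TAC (7.53 ± 0.31), which overlapped, then G4D TAC (6.54 ± 0.38), then G4D sham (5.87 ± 0.36). The G4D TAC and G4D sham ranges overlapped too, while the genotypes did not overlap in sham or after TAC. TAC minus sham was 0.67 ± 0.19 in G4D and -0.01 ± 0.21 in wild type. The difference between these responses was 0.68 ± 0.28. With the deposited values it was 1.05, or 0.63 relative to the median of all genes, which that scale moved by 0.42. Since the sham arrays that chose the gene enter all of these values, none is given a test. The difference after TAC was 59.4% of the sham difference on the log2 scale, a share that choosing the gene by its sham difference can lower.

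Rhobtb1 was the member that was higher in G4D sham hearts. On its brighter probe set the level was 9.83, 9.69, 9.44, 9.77 and 9.68 in G4D sham hearts, against 8.26, 8.48, 8.97 and 8.32 in wild-type sham hearts. All G4D sham arrays lay above all wild-type sham arrays, by at least 0.46. In sham, 2.9% of tested genes had groups that did not overlap. The means differed by 1.17 ± 0.18, a 2.25-fold higher level in G4D, again as a description. After TAC the level was 8.64 at the lowest, 9.0 at the median and 9.38 at the highest in G4D hearts, against 8.50, 9.09 and 9.62 in wild-type hearts. The G4D TAC arrays lay inside the range of the wild-type TAC arrays.

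The Rhobtb1 difference after TAC was -0.05 ± 0.16 (95% interval -0.38 to 0.28; limma adjusted p = 0.961; exact permutation p = 0.79). Its sign was not stable: it was 0.14 in the deposited values and 0.017 with median centring, neither called. On the second Rhobtb1 probe set the difference was -0.13 ± 0.22 after TAC (adjusted p = 0.976; exact permutation p = 0.602), with levels of 6.15, 7.00 and 7.51 at the lowest, median and highest in G4D hearts, against 6.63, 7.16 and 7.41 in wild-type hearts. In sham that probe set read 8.18, 7.81, 7.27, 8.07 and 7.62 in G4D hearts, against 6.27, 5.86, 7.08 and 6.30 in wild-type hearts. The difference was 1.41 ± 0.26 with no overlap, as 1.93% of all probe sets had in sham, on the arrays that chose the gene. Both probe sets showed the same order of groups, with r = 0.858 between them over the 21 arrays.

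The Rhobtb1 group means ran from G4D sham (9.68 ± 0.15, SD) through wild-type TAC (9.09 ± 0.37) and G4D TAC (9.04 ± 0.27) to wild-type sham (8.51 ± 0.32). Each neighbouring pair in this order overlapped. G4D TAC lay below G4D sham without overlap, by a gap of 0.061, and 10.1% of tested genes had G4D groups that did not overlap. The difference was -0.64 ± 0.17. With the deposited values it was -0.20, or -0.51 relative to the median of all genes. In wild type, TAC minus sham had the opposite sign, 0.58 ± 0.18. The response in G4D less that in wild type was -1.22 ± 0.24. With the deposited values it was -0.69, or -1.11 relative to the median of all genes. This contrast uses the sham arrays that chose the gene and is not tested.

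Tnfaip2 was lower in G4D sham hearts. On its brightest probe set, of the type marked as sharing probes with other sequences, the level was 7.00, 7.58, 7.81, 7.42 and 7.42 in G4D sham hearts, against 8.51, 8.58, 8.30 and 8.47 in wild-type sham hearts. The groups were 0.48 apart at their nearest, and the difference was -1.02 ± 0.16, or 0.493 of the wild-type level, as a description. Groups that did not overlap in sham were found for 2.9% of tested genes. After TAC the level ran from 7.52 through a median of 7.76 to 7.87 in G4D hearts, against 7.49, 7.86 and 8.40 in wild-type hearts. The G4D TAC arrays fell within the lower part of the wild-type TAC range.

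The Tnfaip2 difference after TAC was -0.17 ± 0.14 (95% interval -0.46 to 0.12), and it did not pass the test (limma adjusted p = 0.71; exact permutation p = 0.279). The second probe set, which is not of the shared type, gave -0.21 ± 0.14 after TAC (adjusted p = 0.812; exact permutation p = 0.223) and -0.69 ± 0.16 in sham. Its levels in sham were 6.79, 7.05, 7.12, 6.79 and 6.71 in G4D hearts, against 7.80, 7.55, 7.35 and 7.65 in wild-type hearts. These did not overlap, as was so for 1.93% of all probe sets in sham. The third, at the 50.3 percentile of mean level, did not follow the others. It read 5.13, 5.07, 5.22, 4.71 and 4.87 in G4D sham hearts, against 4.75, 4.82, 4.83 and 5.08 in wild-type sham hearts, which overlapped, and its difference was 0.13 ± 0.14. After TAC its difference was -0.19 ± 0.12 (adjusted p = 0.789; exact permutation p = 0.162). Its correlation with the brightest probe set was -0.131 over the 21 arrays, against 0.813 for the second. What part of the Tnfaip2 transcript it reads was not known.

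The order of the group means for Tnfaip2 was wild-type sham (8.47 ± 0.12, SD), wild-type TAC (7.90 ± 0.33), G4D TAC (7.73 ± 0.13) and G4D sham (7.45 ± 0.30). Each neighbouring pair overlapped, wild-type TAC and wild-type sham by 0.10. TAC minus sham was 0.28 ± 0.14 in G4D and -0.57 ± 0.15 in wild type, with 0.85 ± 0.21 between these responses, untested for the same reason. With the deposited values these were 0.69 in G4D and 1.33 between the responses, or 0.38 and 0.91 relative to the median of all genes. With the mean of all 3 probe sets the differences were -0.06 in G4D and 0.34 between the responses, beside a sham difference of -0.53. The second probe set had the opposite sign in G4D: its TAC minus sham was -0.14 ± 0.15 in G4D and -0.62 ± 0.16 in wild type.

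**Figure D2:**
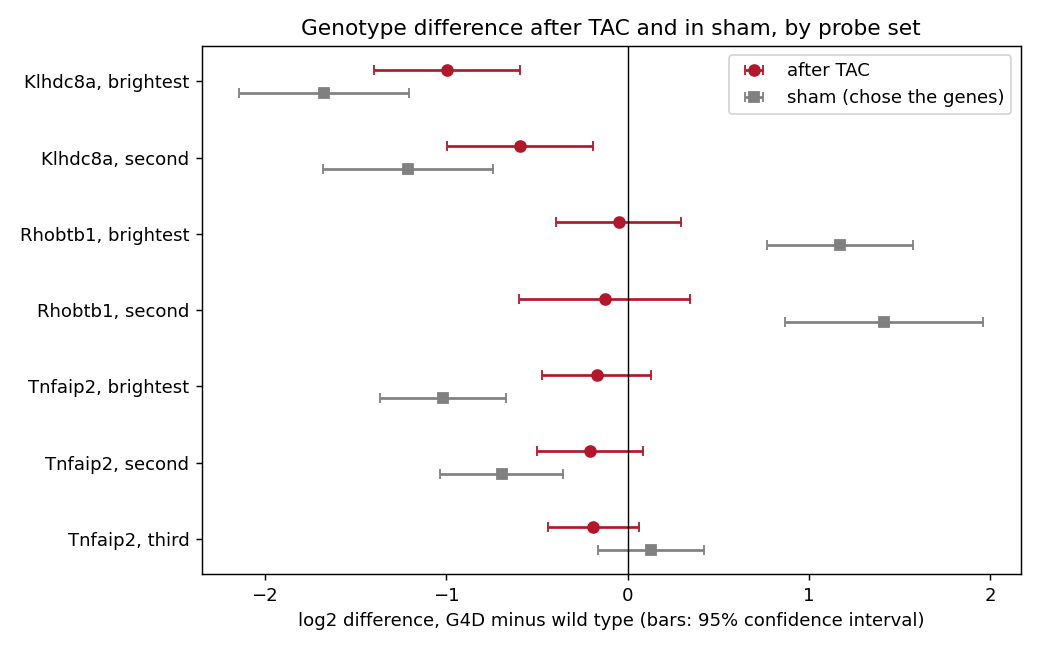
The log2 difference of G4D minus wild type after TAC (red circles) and in sham (grey squares) for each probe set, with 95% confidence intervals from the fit of all probe sets. The intervals after TAC lie below 0 for both Klhdc8a probe sets and cross 0 for the 5 others. The sham arrays chose the genes, so the sham intervals are a description, and that of the third Tnfaip2 probe set alone crosses 0.

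The 2 genotype comparisons share no array, so the share of all genes that keep their sign between them is a background for the 3 members. Over all 13279 tested genes 52.6% had the same sign in both, and of the 446 called after TAC 77.4% had the same sign in sham. Klhdc8a and Tnfaip2 kept their sign and Rhobtb1 did not. The other 4 genes called in sham all kept theirs. Of these, Myot, which encodes myotilin of the sarcomere's Z-disc, was higher after TAC in G4D hearts by 1.66 ± 0.18 (adjusted p = 2.34e-05) and Ccn2, the connective tissue growth factor, by 1.34 ± 0.20 (adjusted p = 0.000677), both by limma. Ankrd1, whose product is a nuclear cofactor made under cardiac stress, did not pass the test and stood at 0.28 ± 0.13 (adjusted p = 0.359). Gm26782, of no known role here, was lower by limma at -1.71 ± 0.19 (adjusted p = 2.34e-05). By the size of the sham p-value the 3 members held ranks 1 (Klhdc8a), 2 (Tnfaip2) and 3 (Rhobtb1) of all tested genes. These sham ranks come with the choice of the members. After TAC the members held ranks 95, 4249 and 10452, and a fall in rank can come from that choice.

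**Figure D3:**
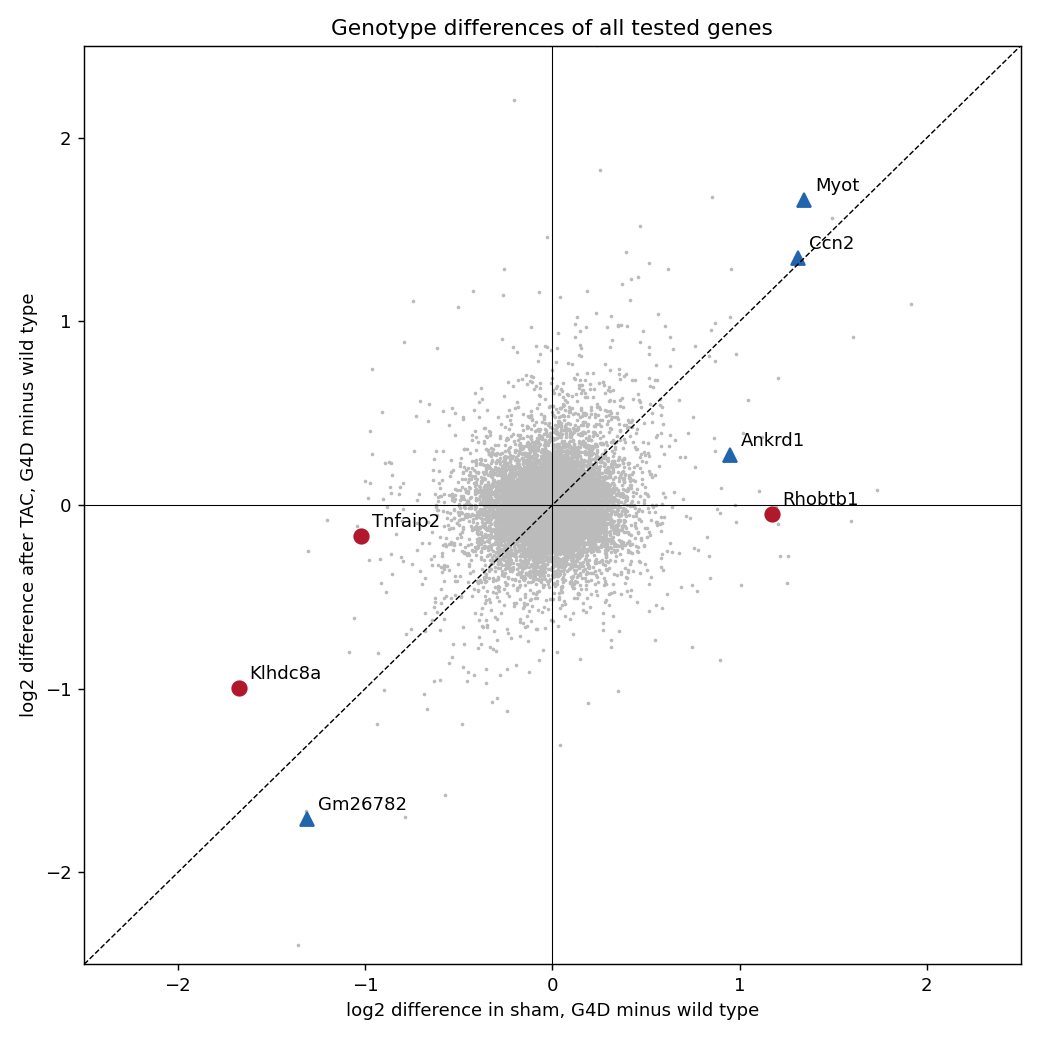
The log2 difference of G4D minus wild type in sham (horizontal) against that after TAC (vertical) for all tested genes (grey; 3 lie beyond the axes), with the 3 members in red and the other 4 genes called in sham as blue triangles. Klhdc8a lies below 0 on both axes, away from the bulk of genes, while Rhobtb1 and Tnfaip2 lie close to 0 after TAC.

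No tested gene on lists of relatives of the 3 members was called between the genotypes. Families and pathways around the members made up 5 lists, and 55 of their 71 genes were tested. limma called 0 of the 55 between the genotypes after TAC, where 3.36% of all tested genes were called, and 0 in sham. At an unadjusted p under 0.05 there were 5 after TAC and 6 in sham, where 13.4% and 8.08% of all tested genes had such a p. The median of the 55 differences was 0.035 after TAC and -0.0033 in sham, against -0.0052 and -0.0079 over all tested genes.

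Of the other kelch-domain genes, 5 were tested. Klhdc3 had the largest difference after TAC, -0.28 ± 0.09 (adjusted p = 0.135), followed by Klhdc1 at -0.15 ± 0.11 (adjusted p = 0.689). Klhdc1 fell after TAC in both genotypes, by 0.73 in G4D (adjusted p = 0.000165) and by 0.57 in wild type (adjusted p = 0.00869), where Klhdc8a stood at -0.01 ± 0.21 in wild type. Klhdc8b, the nearest relative by name, was below the filter level.

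Among the 12 tested relatives of Rhobtb1 and parts of the cullin-3 ligase, its family member Rhobtb2 stood at 0.16 ± 0.13 after TAC (adjusted p = 0.693) and Klhl2, a cullin-3 adaptor, at 0.27 ± 0.25 (adjusted p = 0.763). Pde5a, the phosphodiesterase that Rhobtb1 brings to the ligase in smooth muscle, was chosen after its values were seen and fell after TAC in G4D by 0.32 ± 0.11 (adjusted p = 0.0453), beside a fall of Spop, another adaptor, by 0.22 (adjusted p = 0.022) and a rise of the exchange factor Cand1 by 0.56 (adjusted p = 0.0129). In G4D 22.5% of all tested genes were called after TAC. In wild type 0 of the 12 was called, with 7.35% of all genes called.

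Around Tnfaip2, 10 genes of tumour necrosis factor receptor signalling and 15 genes induced by it or by NF-kB were tested, and limma called 0 of either between the genotypes. After TAC the receptor gene Tnfrsf1a stood at 0.16 ± 0.08 and the kinase gene Map3k7 at 0.18 ± 0.11. Of the induced genes, Tnfaip8 stood at -0.34 ± 0.11 after TAC (adjusted p = 0.102). In sham 9 of the 15 induced genes stood higher in G4D, with a median of 0.07. Relb, an NF-kB subunit and itself an NF-kB target, was not called in sham. Its level was 3.52, 3.76, 3.52, 3.74 and 3.64 in G4D sham hearts, against 4.35, 4.60, 3.89 and 4.64 in wild-type sham hearts. These groups did not overlap, as was so for 2.9% of all tested genes in sham, and the difference was -0.74 ± 0.17 (adjusted p = 0.146). After TAC it was 0.30 ± 0.14 (adjusted p = 0.39). Relb rose after TAC in G4D by 1.28 ± 0.15 (adjusted p = 5.24e-06), over a G4D sham mean below the filter level of 4.35, so that size is imprecise. The 13 tested exocyst genes and Tnfaip2 relatives included Exoc3l4, at 0.38 ± 0.14 in G4D over wild type after TAC (adjusted p = 0.161), and the exocyst subunit gene Exoc5 at 0.27 ± 0.10 (adjusted p = 0.203).

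Levels of cell type markers were set beside the 3 genes, since a bulk sample cannot tell fewer cells of a type from less RNA per cell. The 9 endothelial markers, all above the filter level, averaged 8.15 to 8.65 in G4D TAC, 8.32 to 8.78 in wild-type TAC, 7.99 to 8.45 in G4D sham and 8.20 to 8.46 in wild-type sham. The 9 macrophage and myeloid markers, also all above it, averaged 7.93 to 8.45, 7.85 to 8.75, 7.19 to 7.64 and 7.50 to 7.61 in the same order of groups. Both lists overlapped between the genotypes in sham and after TAC, with differences of -0.06 and -0.14 in sham and of -0.09 and -0.11 after TAC. The 6 smooth muscle markers, of which Cnn1 was below the filter level, differed by 0.10 in sham and the 7 fibroblast markers by 0.10. After TAC the mean of the fibroblast markers was 0.38 higher in G4D, and 7 of 7 were positive. Of these 7, 0 were called, where 3.36% of all tested genes were. There were 3 at an unadjusted p under 0.05, where 13.4% of all tested genes had such a p. The mean of the smooth muscle markers was 0.18 higher in G4D. The groups overlapped for both lists. The mean of the 8 myocyte markers differed by -0.05 after TAC and did not overlap between the genotypes. Of single tested genes, 2.59% did not overlap after TAC. The part of these markers in the results of the 3 genes, in sham or after TAC, was not tested. Leaving out sample 5 of G4D sham, with its high atrial markers, left the sham differences at -1.72 for Klhdc8a, 1.17 for Rhobtb1 and -1.01 for Tnfaip2. Without sample 6 of G4D TAC the differences after TAC were -0.97, -0.04 and -0.13, and Klhdc8a stayed called (adjusted p = 0.0094).

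Clock genes were measured beside the 3 members. The median difference of 15 tested clock genes was 0.46 in sham, with 11 higher in G4D, and -0.11 after TAC, with 0 higher. limma called 0 of them between the genotypes in either comparison. In sham 8 of the 15 had an unadjusted p under 0.05, a larger share than the 8.08% of all tested genes. After TAC 2 of the 15 had such a p, a share near the 13.4% of all tested genes. Hlf, a clock-controlled transcription factor, read 7.11, 6.97, 7.15, 7.10 and 6.75 in G4D sham hearts, against 6.24, 6.17, 6.71 and 5.96 in wild-type sham hearts. The sham groups did not overlap for Hlf, as was so for 2.9% of all tested genes. Its sham difference of 0.74 ± 0.31 was not called by limma (adjusted p = 0.521). After TAC Hlf ran from 4.29 to 6.33 in G4D hearts, against 5.31 to 6.75 in wild-type hearts, a difference of -0.77 ± 0.27 (adjusted p = 0.138). Nr1d2, a clock repressor, differed by 0.29 ± 0.14 in sham and -0.35 ± 0.12 after TAC (adjusted p = 0.143). In G4D limma called 6 of the 15 as lower after TAC and 1 as higher, where 22.5% of all tested genes were called. Called or not, 3 of the 15 stood higher after TAC in G4D, and the median was -0.66. In wild type limma called 0 of the 15, where 7.35% of all tested genes were called. There, 1 of the 15 had an unadjusted p under 0.05, as had 19.9% of all tested genes. The mean level over 16 clock genes was 5.95 to 6.60 in G4D TAC, 6.12 to 6.63 in wild-type TAC, 6.50 to 6.86 in G4D sham and 6.22 to 6.61 in wild-type sham. The labels give no time of day of collection, and the part of the clock genes in the Rhobtb1 result was not tested.

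**Figure D4:**
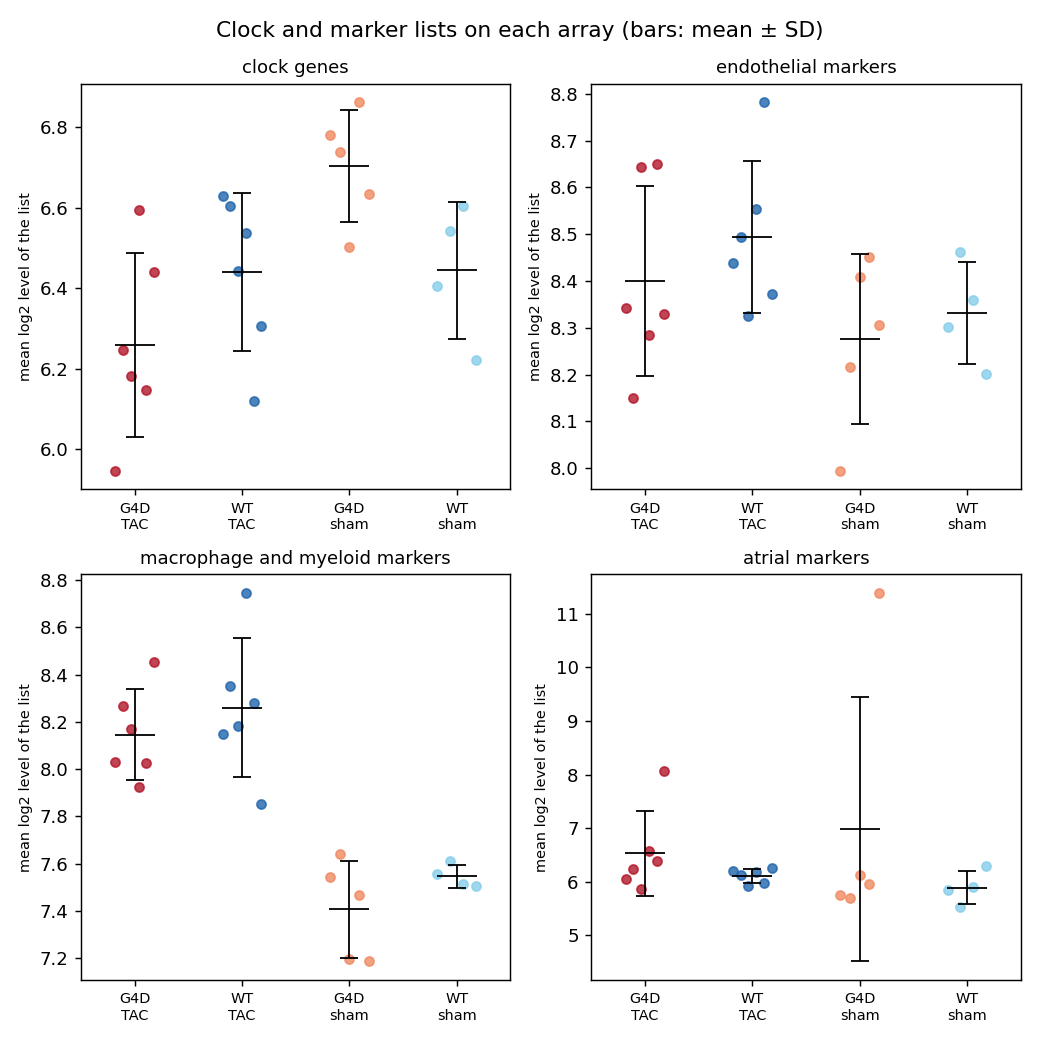
The mean log2 level over the clock genes and over 3 lists of cell type markers on every array (points), with group mean ± SD (bars). G4D sham has the highest group mean of the clock genes, the endothelial and myeloid lists overlap between the genotypes, and sample 5 of G4D sham and sample 6 of G4D TAC stand apart on the atrial list.

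The genes whose levels followed each member most closely over the 21 arrays were found by Pearson correlation, as a description, with groups that differ in mean and arrays in common. For Klhdc8a they were Rom1 (r = 0.825, Spearman rho = 0.818), the copper transporter gene Slc31a1 (0.824 and 0.792) and the centromere histone gene Cenpa (0.818 and 0.829). Rhobtb1 was followed most closely by Lonrf1 (r = 0.858, rho = 0.856), the glucocorticoid-induced gene Tsc22d3 (0.833 and 0.862) and Timp3, an inhibitor of matrix proteases (0.829 and 0.875). The differences of these 3 were 1.19, 0.60 and 0.90 in sham and, after TAC, -0.0098, 0.05 and -0.04. They were picked for following Rhobtb1 over these same arrays, so a like pattern of groups comes with the choice. Tnfaip2 was followed by the mitochondrial magnesium channel gene Mrs2 (r = 0.861, rho = 0.794), the phosphatase subunit gene Ppp2r5a (0.800 and 0.756) and Gon4l (0.792 and 0.648).

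Within groups, where the genotype and operation no longer contribute, the closest genes were mostly others. In deviations from the group means they were Retnla, Hoxb4 and Nit2 for Klhdc8a (r = 0.788, 0.770 and 0.769), the nuclear receptor gene Rora, Ak3 and Dpyd for Rhobtb1 (0.829, 0.803 and 0.801), and Mrs2, Pigo and Ppp6c for Tnfaip2 (0.802, 0.773 and 0.744). Mrs2 was thus the nearest gene to Tnfaip2 on both measures. These genes were picked as the closest of the tested genes, so high values come with the choice and are a description. The 3 members also correlated with each other within groups: Tnfaip2 correlated with Klhdc8a at 0.610 and with Rhobtb1 at -0.635, and Klhdc8a with Rhobtb1 at -0.427. No values of other pairs of genes are set beside these.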

How the data were processed

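The deposited values are the authors' log2 expression values for 45101 probe sets on 21 arrays, made with PLIER per the submitters' processing notes, and its version and settings are not given in the sources used here. They ran from -13.5 to 15.1. The values were quantile normalized between arrays, 64 control probe sets were left out, and gene names came from the platform annotation, in which 34945 probe sets had 1 symbol. For each gene the brightest probe set was kept, and 13279 genes with a mean at or above the 40th percentile (4.35) were tested. limma 3.58.1 in R 4.3.3 fitted the 4 group means over all arrays, with Benjamini-Hochberg adjustment and a call at an adjusted p under 0.05. All 7 probe sets of the members passed the level filter, and those that are not the brightest were read from a fit of all 45037 probe sets. The script was tested on simulated data.

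The members and gene lists were chosen with earlier results of these data known, and the sham arrays chose the members. So the comparison of G4D with wild type after TAC is tested, with an exact two-sided permutation test beside it, and every difference of the members that uses sham arrays is a description. Other genes have limma's adjusted p in all comparisons. Named genes are the members, any gene of a list called between the genotypes or otherwise the 2 of each list with the largest difference after TAC, and the 3 genes most correlated with each member on each measure, clone-type names left out. One further gene list is not reported here. The other genes called in sham, and genes named for a change after TAC within a genotype, fall outside that rule and were picked after their values were seen. Promoter sequences are from RefSeq, build GRCm38.p6. The number of arrays limits the precision. Alternatives were other scalings, filters, probe set choices, spread estimates, a replicate block, the TAC arrays alone and leaving out each array.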

Additional observations from a re-analysis of the deposited data

Results flagged for a closer look

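Of 128 groups of values checked, 11 held a sample far from the others of its group by Dixon's criterion, which chance gives in about 5% of groups. None of them was a probe set of Klhdc8a, Rhobtb1 or Tnfaip2. Among related genes, Klhdc3 was highest in sample 4 of G4D TAC at 9.48 (others 8.97 to 9.15), and Exoc5 was lowest in the same sample at 7.42 (others 7.80 to 7.96). The clock gene Nr1d2 was lowest in sample 3 of G4D sham at 9.64 (others 10.07 to 10.22). The dimmer Gata4 probe set was lowest in sample 3 of G4D TAC at 5.24 (others 6.22 to 6.80), in sample 3 of G4D sham at 5.90 (others 6.47 to 6.63) and in sample 2 of wild-type sham at 5.68 (others 6.66 to 6.86).

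Of the marker means, the atrial list was highest in sample 6 of G4D TAC at 8.06 and in sample 5 of G4D sham at 11.39. Sample 6 of G4D TAC also had the lowest mean of myocyte markers at 12.28 (others 12.35 to 12.37). The fibroblast mean was highest in sample 4 of wild-type sham at 8.83 (others 8.71 to 8.73), and the adipocyte mean was lowest in sample 3 of G4D TAC at 6.05 (others 6.58 to 6.90).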

How the results depend on the processing

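The count of genes called between the genotypes after TAC, 446 with 278 higher in G4D, depended on the scaling: it was 64 with the deposited values, 56 of them higher, and 184 with median centring, 153 of them higher. Leaving out 1 array gave 249 (without sample 1 of G4D TAC) to 646 (without sample 4 of G4D TAC), with 284 and 281 without samples 1 and 3 of wild-type TAC. The Klhdc8a difference after TAC was called under all alternatives run except the deposited values, where it was -0.85 (adjusted p = 0.108). Leaving out 1 array gave -1.07 to -0.85. The Rhobtb1 difference turned sign with the deposited values (0.14), with median centring (0.017), and without sample 1 of wild-type TAC (0.056) or sample 5 of G4D TAC (0.031), and leaving out 1 array gave -0.17 to 0.056. The Tnfaip2 difference kept its sign and was called under no alternative run, but it was -0.0057 with the deposited values, and -0.25 to -0.07 over the arrays left out. Relative to the median of all genes, which the deposited scale moved by 0.14 after TAC and -0.28 in sham, the differences after TAC were -0.99, -0.0043 and -0.15 for Klhdc8a, Rhobtb1 and Tnfaip2. The cause of these changes was not tested.

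Of 324 values of the untested differences under alternatives, 314 moved by less than the pooled SD between arrays. The 10 others came from the deposited values and from the mean of all probe sets of Tnfaip2, where its sham difference was -0.53 and its TAC minus sham in G4D -0.06.

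With the replicate number of the titles as a block, 277 genes passed, 190 with the higher level in G4D, and no call of the 3 members changed. Over 19 pairs of samples with the same number the deviations from group means correlated at -0.359 to 0.353, 6 of them over 0.1, so the numbers were not taken to pair the samples.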
